A study of Mus musculus with 11 samples.

Results

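The response of NR4 B cells to cross-linking of their antigen receptor was measured on 6 of the 11 arrays of the series, chosen by their labels as the 3 arrays of stimulated and the 3 arrays of unstimulated NR4 cells, with every probe set included. The mice were NR4 (NOD.NOR-Chr4/DvsJ), congenic animals on the diabetes-prone NOD/ShiLtJ background with part of chromosome 4 of the related, diabetes-resistant NOR strain. All animals were females aged 6 weeks, and each strain gave 3 lots of 7 to 8 pooled spleens, from which B cells were enriched by magnetic depletion of other cells. For 2 h the cells of a lot stayed in RPMI medium, as the unstimulated group, or received 10 µg/ml of F(ab')2 fragments of a goat antibody to mouse IgM, as the anti-IgM group. The same protocol applied to NOD cells gave 3 unstimulated and 2 anti-IgM arrays, which enter here only for the shared estimate of error and a side-by-side view. The arrays are Affymetrix Mouse Genome 430 2.0, and their signals are on a log scale taken as log2, centred on the median of each probe set over all 11 arrays. A signal above 0 is thus above that median, and neither a level nor a detection call can be read from it. For the same reason the labelled cell type cannot be checked from the level of B cell markers.

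The B cell receptor is a membrane immunoglobulin joined to the signalling chains CD79A and CD79B. When it is cross-linked, the kinases LYN, SYK and BTK and phospholipase C gamma activate calcium and calcineurin, which bring NFAT to the nucleus, and diacylglycerol and RasGRP, which activate the ERK MAP kinases. NF-kB is activated as well. Within the first hours these routes switch on immediate-early transcription factors, chemokines and feedback inhibitors, and transcripts typical of resting cells decline. The F(ab')2 fragments used here lack the Fc part, so they do not engage the inhibitory Fc receptor of B cells.

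After 2 h of anti-IgM, the transcription factors Maff, Egr2 and Rel, the chemokine Ccl4, the cytokine Il10, the MAP kinase phosphatase Dusp4 and the G protein regulators Rgs1 and Rgs13 were among the genes that rose in NR4 B cells. Cpm, Klhl14, Lrrk2 and Rasgrp3 were among those that fell. Of 18193 genes tested with limma, 75 (0.412%) were called at a Benjamini-Hochberg adjusted p under 0.05, 30 of them higher (0.165%) and 45 lower (0.247%). Before adjustment, 1752 genes (9.63%) had a p under 0.05. Changes are anti-IgM minus unstimulated, and the value given for a gene that was not called is this log2 change. The 30 rises spanned 0.54 to 2.54 log2 units with a median of 1.02, and the 45 falls spanned -0.50 to -2.42 with a median of -0.92. Of these, 15 rises and 21 falls were at least 2-fold. In all 75 genes the 3 anti-IgM arrays did not overlap the 3 unstimulated arrays. It follows that all 3 pairs of arrays with the same replicate number differed the same way. Among all genes tested, the arrays did not overlap for 2294 (12.6%), of which 932 (5.12%) were higher and 1362 (7.49%) lower after anti-IgM.

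The number of calls moved with the model. A fit that adds replicate number as a block called 229 genes (1.26%), 82 higher (0.451%) and 147 lower (0.808%), among them all 75. This block gives NR4 and NOD arrays of the same number a shared shift. Within the NR4 arrays alone, the block called 16 genes, 7 higher and 9 lower. Quantile normalization of the deposited values left 16 genes, 10 higher and 6 lower, all among the 75, and a fit on the NR4 arrays alone left 9, 5 higher and 4 lower. Leaving out 1 NR4 array gave 21 genes without unstimulated replicate 1, 34 without replicate 3 and 49 without replicate 2. The counts were 43 without anti-IgM replicate 1, 47 without replicate 2 and 50 without replicate 3. No called gene (0 of 75) changed direction under any alternative. Where NR4 arrays were left out, taken alone or weighted without the block, this had to be so, because the arrays of these genes do not overlap. Called with any 1 NR4 array left out were 16 genes. These are the rises of Egr2, Rel, Gfi1, Bcl6b, Il10, Ccl4, Dusp4, Rgs1, Gpr183 and Gm6377, and the falls of Lrrk2, Nxpe2, Ralgps2, Rasgrp3, 4930426D05Rik and Gm30054. Egr2, Il10, Lrrk2 and Nxpe2 were the 4 genes called under every alternative. Called in 0 of the 6 fits with an array left out were 14 genes, namely Lipg, Fabp5, Rilpl2, Slc5a3, Tceal9 and Rabgef1 among the rises and Rrm2b, Btg2, Gpr155, Pim2, Itga4, Sesn1, Pcmtd2 and Ssh2 among the falls.

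**Figure D1:**
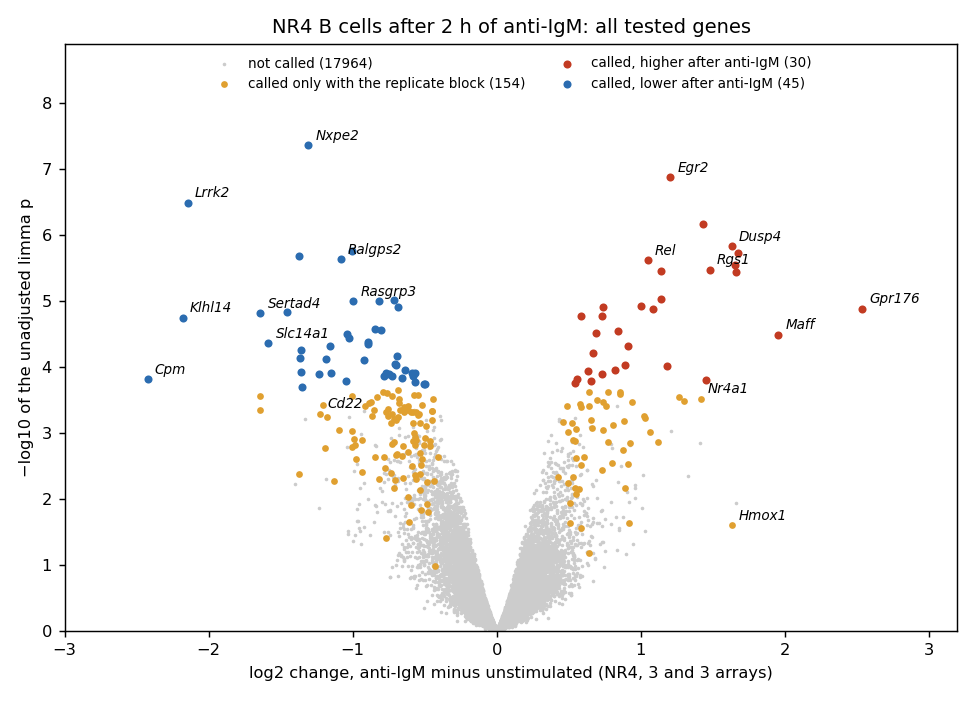
Change of each of the 18193 genes in NR4 B cells after anti-IgM (x axis, log2, anti-IgM minus unstimulated, 3 and 3 arrays) against the negative log10 of its unadjusted limma p (y axis). Red points are the 30 genes called higher, blue points the 45 called lower, orange points the 154 called only with the replicate number as a block, and grey points all others.

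The arrays themselves differed. The actin and Gapdh control probe sets give a 3' minus 5' signal, which reflects RNA integrity and the length of the amplified RNA. Both signals are centred on their medians over the 11 arrays, so the values compare arrays and are not 3' to 5' ratios. The difference was -0.049, -0.068 and 0.289 log2 units on unstimulated arrays 1 to 3. On anti-IgM replicate 1 it was 0.956, against 0.042 and 0.231 on the other anti-IgM arrays. Without anti-IgM replicate 1, 36 of the 75 genes were still called, 16 higher and 20 lower. The median change was then 1.01 for the 30 genes that had risen and -0.94 for the 45 that had fallen. These medians are over genes chosen with that array included, and single genes moved, Gpr176 from 2.54 to 2.14 and Edaradd from -1.45 to -1.19. The array's part in the results was not tested beyond these values.

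Among 28 immediate-early transcription factors measured, Egr2, Maff and Atf3 rose and 25 did not pass, where 0.165% of all genes were called higher. Before adjustment 18 of the 28 had a limma p under 0.05, all 18 of them higher, beside 9.63% of all genes in either direction. Egr2 read -0.01, -0.06 and -0.11 in unstimulated arrays 1 to 3 and 1.20, 1.08 and 1.15 in anti-IgM arrays 1 to 3, a change of 1.20 log2 units (SE 0.09, limma adjusted p = 0.0012). The groups were 1.09 apart at their nearest arrays, and Egr2, a zinc finger factor induced by antigen receptors, had the smallest adjusted p of any rise. Maff read -0.76, -1.15 and -0.28 in unstimulated arrays 1 to 3 and 1.44, 0.70 and 1.53 in anti-IgM arrays 1 to 3 (1.95 log2 units, SE 0.28, limma adjusted p = 0.017). Maff, a small MAF protein that binds DNA but has no activation domain of its own, rose most of all transcription factors, with anti-IgM replicate 2 the lowest stimulated array. Its call was kept in 2 of the 6 fits that leave out an NR4 array. Atf3 read -0.04, -0.44 and -0.28 in unstimulated arrays 1 to 3 and 0.59, 0.66 and 0.71 in anti-IgM arrays 1 to 3 (0.91 log2 units, SE 0.14, limma adjusted p = 0.022). Atf3, a stress-inducible basic leucine zipper factor, spanned 0.40 units in unstimulated and 0.12 in stimulated cells. Jdp2, a dimer partner of the JUN proteins, rose by 0.67 (adjusted p = 0.026), although the second of its probe sets did not follow at an unadjusted p under 0.05. Calls of Atf3 and Jdp2 were each kept in 1 of the 6 fits with an array left out.

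Rel, Irf4, Ahr, Nfatc1, Bcl6b and Gfi1, which encode other transcription factors, rose as well. Rel read -0.48, -0.38 and -0.29 in unstimulated arrays 1 to 3 and 0.54, 0.56 and 0.90 in anti-IgM arrays 1 to 3 (1.05 log2 units, SE 0.11, limma adjusted p = 0.0043). Rel encodes c-Rel, the NF-kB subunit needed for B cell proliferation, and its lowest stimulated array was 0.83 above its highest unstimulated array. Irf4, which directs class switching and plasma cell formation, read -0.20, -0.06 and -0.15 without and 0.54, 0.56 and 0.71 with anti-IgM (0.74 log2 units, SE 0.09, limma adjusted p = 0.01). Tested singly, its 2 probe sets rose by 1.18 and 0.30 (limma adjusted p = 0.012 and 0.29). Ahr, a ligand-activated factor of the basic helix-loop-helix PAS family, read -0.40, -0.16 and -0.66 and then 0.87, 0.67 and 0.49 (1.08 log2 units, SE 0.14, limma adjusted p = 0.01). In each of these 3 genes the groups were clearly apart, with the unstimulated arrays all below 0 and the stimulated arrays all above it. Nfatc1, the NFAT member whose own promoter responds to calcineurin, rose by 0.82 (SE 0.13, adjusted p = 0.038), and 1 of its 5 probe sets did not follow. The zinc finger repressors Bcl6b, a relative of Bcl6, and Gfi1 rose by 1.43 (SE 0.13) and 1.14 (SE 0.13). Their adjusted p-values were 0.0031 and 0.0047.

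The promoters of 4 of these factors are printed because the genes rose together and hold matches to the motifs searched. Maff has 3 listed promoters, Egr2 has 5, and Rel and Irf4 have 1 each. Where several are listed, the 1 with the most matches is printed, for Egr2 among those with a CArG box. Each sequence is RefSeq GRCm38.p6, read in the direction of the gene from 250 bases before the start to 50 after it, with matches to the motifs searched in capitals. The printed Maff promoter (chr15:79347270-79347569, plus strand) holds an E-box CACGTG, an EGR site GCGTGGGCG and a cAMP response element TGACGTCA at 191, 88 and 29 bases before the start. The printed Egr2 promoter (chr10:67537316-67537615, plus strand) holds a CArG box, the site of serum response factor, at 72 bases before it, and 4 of the 5 Egr2 promoters listed hold one. The Rel promoter (chr11:23770920-23771219, minus strand) and the Irf4 promoter (chr13:30748983-30749282, plus strand) each hold an NF-kB match, at 92 and 182 bases before the start.
Maff: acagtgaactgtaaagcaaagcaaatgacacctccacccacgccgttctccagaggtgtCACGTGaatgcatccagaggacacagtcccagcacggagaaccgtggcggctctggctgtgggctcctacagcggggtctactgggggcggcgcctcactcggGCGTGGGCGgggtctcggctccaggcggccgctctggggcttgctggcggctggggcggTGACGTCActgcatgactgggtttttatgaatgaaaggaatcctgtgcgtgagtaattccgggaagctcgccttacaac
Egr2: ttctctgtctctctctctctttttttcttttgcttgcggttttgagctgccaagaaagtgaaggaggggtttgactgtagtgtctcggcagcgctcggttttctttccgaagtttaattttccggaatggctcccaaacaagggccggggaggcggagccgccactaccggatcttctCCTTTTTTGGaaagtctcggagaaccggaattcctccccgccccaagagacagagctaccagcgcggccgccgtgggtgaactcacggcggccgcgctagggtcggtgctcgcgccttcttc
Rel: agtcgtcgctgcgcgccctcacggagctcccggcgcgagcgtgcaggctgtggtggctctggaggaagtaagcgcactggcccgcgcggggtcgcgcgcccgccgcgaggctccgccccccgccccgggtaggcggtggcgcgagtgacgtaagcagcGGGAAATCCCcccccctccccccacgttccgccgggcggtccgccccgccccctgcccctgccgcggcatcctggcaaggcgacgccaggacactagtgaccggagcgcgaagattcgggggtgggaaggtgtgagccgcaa
Irf4: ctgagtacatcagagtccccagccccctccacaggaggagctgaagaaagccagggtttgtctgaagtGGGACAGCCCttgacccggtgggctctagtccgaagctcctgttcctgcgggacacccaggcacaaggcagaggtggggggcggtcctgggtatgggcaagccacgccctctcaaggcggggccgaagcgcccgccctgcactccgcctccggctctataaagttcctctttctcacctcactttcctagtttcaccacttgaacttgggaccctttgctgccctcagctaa

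Over all 18193 genes, 14452 had a listed promoter, as did 21 of the 30 risen and 34 of the 45 fallen genes. The NF-kB pattern (GGGA, any 4 bases, then CC), searched on both strands like the others, was found in 11 of the 21 risen genes (52.4%), 10 of the 34 fallen genes (29.4%) and 28.4% of all genes. The CArG box was found in 2 of the 21 (9.52%), 0 of the 34 and 1.58% of all genes. The AP-1 pattern TGANTCA was found in 0 of the 21 risen genes, 1 of the 34 fallen genes (2.94%) and 7.54% of all genes. The CRE TGACGTCA stood in 1 risen gene (4.76%), 2 fallen genes (5.88%) and 2.92% of all. The E-box stood in 2 risen (9.52%), 3 fallen (8.82%) and 10.2% of all, and the EGR site in 1 risen, 0 fallen and 1.17% of all. A gene counts once, whatever its number of listed promoters, and genes with several have more chances of a match. Counted per promoter, the NF-kB pattern stood in 12 of 33 for risen genes (36.4%), 10 of 46 for fallen genes (21.7%) and 25% of all. The CArG box stood in 5 of 33 (15.2%), 0 of 46 and 1.35%, and 4 of those 5 are promoters of Egr2. No match in the printed promoters overlapped another, the shares were not tested, and a match of letters is not a site of binding.

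Il10 and Ccl4 rose and Il12a fell among 24 cytokines and chemokines measured, and 21 did not pass. Il10 read -0.14, 0.00 and -0.55 in unstimulated arrays 1 to 3 and 1.38, 1.55 and 1.40 in anti-IgM arrays 1 to 3 (1.67 log2 units, SE 0.17, limma adjusted p = 0.0043). Il10, the anti-inflammatory cytokine made by regulatory B cells, spanned 0.18 units over the stimulated arrays, the lowest of which lay 1.38 above the highest unstimulated one. Ccl4 read -0.86, -0.88 and -1.08 in unstimulated arrays 1 to 3 and 0.59, 0.80 and 0.75 in anti-IgM arrays 1 to 3 (1.65 log2 units, SE 0.18, limma adjusted p = 0.0046). Ccl4 encodes MIP-1 beta, a chemokine that draws T cells and monocytes, and was low on every unstimulated array and high on every stimulated one. The related Ccl3 read -0.60, -0.55 and -0.95, then 0.00, 1.20 and 0.93, and its change of 1.41 (SE 0.33) missed the threshold (limma adjusted p = 0.12, and 0.072 with the replicate block). Its arrays did not overlap. Il12a, the p35 chain of IL-12 and IL-35, fell, reading 0.31, 0.00 and 0.55 and then -1.21, -0.68 and -1.32 (-1.36 log2 units, SE 0.22, limma adjusted p = 0.038), and its call was kept in 1 of the 6 fits with an array left out. The median change of the 24 was 0.10, against 0.02 over all genes.

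Dusp4 was called among 15 MAP kinase feedback inhibitors, and Rgs1 and Rgs13 among 10 RGS genes. Dusp4 read -0.46, -0.04 and -0.40 in unstimulated arrays 1 to 3 and 1.52, 1.20 and 1.27 in anti-IgM arrays 1 to 3 (1.63 log2 units, SE 0.16, limma adjusted p = 0.0043). Dusp4 is a nuclear phosphatase that inactivates MAP kinases, and its lowest stimulated array lay 1.25 above its highest unstimulated one. Rgs1 read -0.75, -0.63 and -1.12 in unstimulated arrays 1 to 3 and 0.39, 0.82 and 0.74 in anti-IgM arrays 1 to 3 (1.48 log2 units, SE 0.16, limma adjusted p = 0.0047). Rgs1, which shortens signalling from chemokine receptors, and Rgs13, a relative that rose by 1.19 (SE 0.19, adjusted p = 0.035), were both higher on every stimulated array. The other 8 RGS genes lay between -0.26 and 0.16. The median of the 15 MAP kinase feedback inhibitors was 0.07. Spry1 (0.96) and Dusp6 (-0.65) did not pass (adjusted p = 0.23 and 0.13), and Dusp6 fell in the fit with the block (adjusted p = 0.045).

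Gpr176 read -0.91, -1.28 and -1.45 in unstimulated arrays 1 to 3 and 2.10, 0.72 and 1.14 in anti-IgM arrays 1 to 3 (2.54 log2 units, SE 0.32, limma adjusted p = 0.01), the largest rise of any gene. Gpr176 is an orphan G protein-coupled receptor known from the circadian clock, and anti-IgM replicate 1 was its highest array. Its change without that array was 2.14 (adjusted p = 0.021), and it was called in 5 of the 6 fits with an array left out. Of the 15 migration receptors and integrins measured, Gpr183 and S1pr3 rose and Itga4 fell. Gpr183, the oxysterol receptor EBI2 that guides activated B cells to the outer follicle, read -0.26, -0.27 and -0.51 and then 0.32, 0.43 and 0.40 (0.73 log2 units, SE 0.10, limma adjusted p = 0.011). S1pr3, a sphingosine phosphate receptor of marginal zone B cells, rose by 1.00 (SE 0.13, adjusted p = 0.01), with 1 of 3 probe sets not following. Itga4, the alpha chain of the VLA-4 integrin, fell by 0.59 (SE 0.10, adjusted p = 0.038), a call kept in 0 of the 6 fits with an array left out. The chemokine receptors Cxcr4, Cxcr5 and Ccr7 had values of 0.01, 0.44 and 0.29 and were not called.

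Genes of metabolism and of other functions completed the rises, named here to account for all 30. Lipg, endothelial lipase, rose by 1.45 (SE 0.25, adjusted p = 0.042), but the call was lost in every fit that left out an NR4 array, and 1 of its 3 probe sets did not follow. Eno2, a glycolytic enolase, rose by 0.84, Fabp5, a fatty acid carrier, by 0.89, and Slc5a3, an inositol transporter, by 0.65. Nampt, which makes the NAD precursor NMN, rose by 0.63, and Odc1, the rate-limiting enzyme of polyamine synthesis, by 0.59. One probe set each of Slc5a3 and Nampt did not follow. Mapk6, the atypical MAP kinase ERK3, rose by 0.69, and Rabgef1, an exchange factor for RAB5, by 0.54. The remaining rises were Gm6377 (1.66), Gdap10 (1.14), Rilpl2 (0.73) and Tceal9 (0.56).

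**Figure D2:**
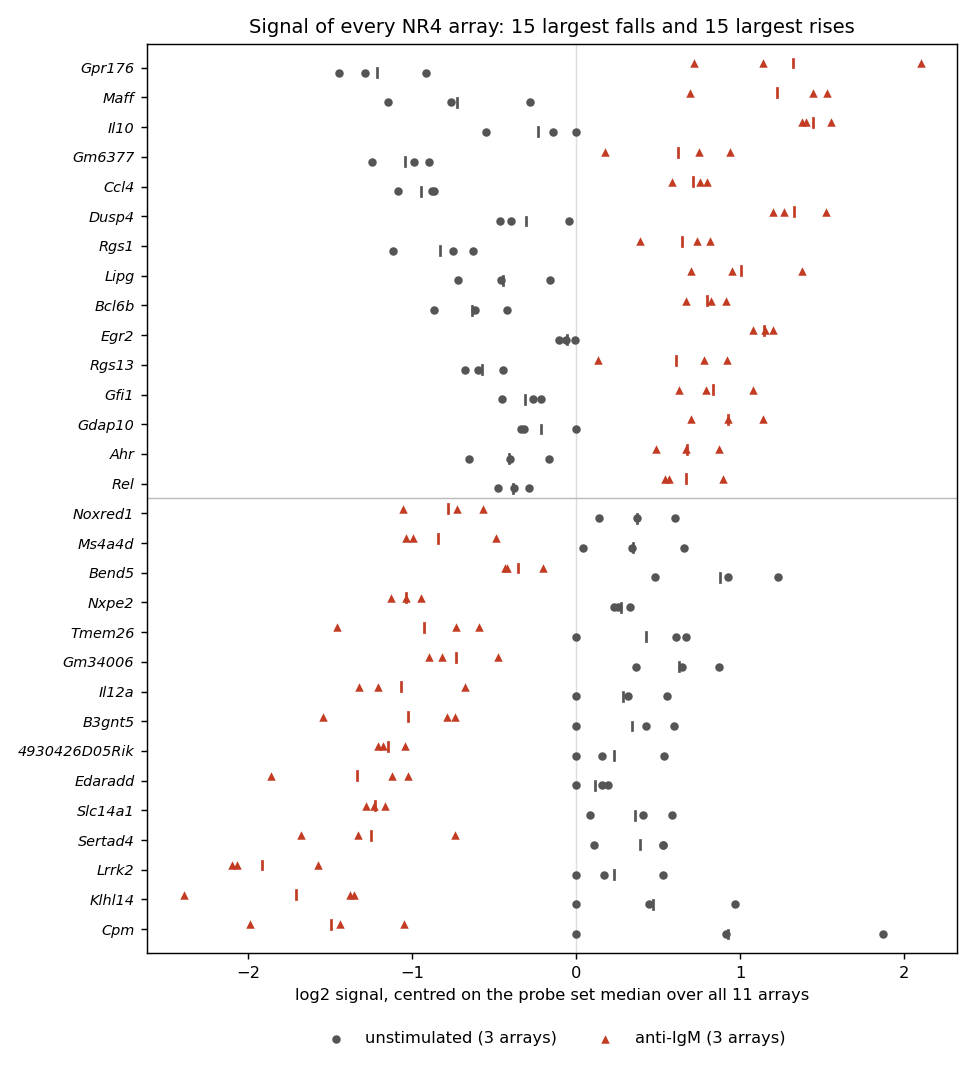
Centred log2 signal on each of the 6 NR4 arrays (x axis) for the 15 genes with the largest rises and the 15 with the largest falls among called genes (y axis). Circles are unstimulated arrays, triangles are anti-IgM arrays and short lines are group means. In every gene shown the 3 circles and the 3 triangles do not overlap, which was a condition for being shown that all 75 called genes met.

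The falls were led by genes with varied roles. Cpm read 0.92, 0.00 and 1.87 in unstimulated arrays 1 to 3 and -1.05, -1.99 and -1.44 in anti-IgM arrays 1 to 3 (-2.42 log2 units, SE 0.42, limma adjusted p = 0.042). Cpm, a membrane carboxypeptidase, had the largest fall of any gene, but its unstimulated arrays were spread over 1.87 units and its call was kept in 1 of the 6 fits with an array left out. Klhl14 read 0.45, 0.00 and 0.97 in unstimulated arrays 1 to 3 and -1.35, -2.39 and -1.38 in anti-IgM arrays 1 to 3 (-2.18 log2 units, SE 0.29, limma adjusted p = 0.012). Klhl14 encodes a kelch-like protein. Lrrk2 read 0.53, 0.00 and 0.17 in unstimulated arrays 1 to 3 and -2.07, -2.10 and -1.57 in anti-IgM arrays 1 to 3 (-2.15 log2 units, SE 0.18, limma adjusted p = 0.002). Lrrk2, a large kinase known for Parkinson's disease and expressed in B cells, was at least 1.57 lower on every stimulated than on every unstimulated array. Nxpe2 read 0.33, 0.23 and 0.26 and then -1.13, -0.95 and -1.03 (-1.31 log2 units, SE 0.09, limma adjusted p = 0.00079) and ranked first of all genes by adjusted p, although the second of its 2 probe sets had a value of only -0.12. Slc14a1, a urea transporter, read 0.59, 0.09 and 0.41 and then -1.16, -1.23 and -1.28 (-1.59 log2 units, SE 0.23, limma adjusted p = 0.021). The stimulated arrays of Slc14a1 lay within 0.12 of each other only as the median of its 2 probe sets. On anti-IgM arrays 1 to 3 these read -2.42, -1.39 and -1.78, and 0.09, -1.07 and -0.78. Tested singly, the second of them did not pass (limma adjusted p = 0.42).

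Several of the genes that fell act in immune signalling. Rasgrp3, the diacylglycerol-responsive Ras activator downstream of the B cell receptor, read 0.12, 0.00 and 0.38 and then -0.74, -0.80 and -0.94 (-0.99 log2 units, SE 0.12, limma adjusted p = 0.01). Ralgps2, an exchange factor for the Ral GTPases, fell by 1.08 (SE 0.11, adjusted p = 0.0043), with 1 of 3 probe sets not following. Edaradd, an adaptor of the ectodysplasin receptor, fell by 1.45 (SE 0.19) and Irak3, an inhibitor of Toll-like receptor signalling, by 1.15 (SE 0.19). Of the 5 Edaradd probe sets, 1 did not follow. Slamf6, a homophilic receptor of the SLAM family, fell by 1.04, the tetraspanin Cd37 by 0.58, the survival kinase Pim2 by 0.66 and the ETS factor Fli1 by 0.69. Of 27 receptor kinases, adaptors and calcium genes, Nfatc1 rose, Rasgrp3 fell and 25 did not pass, and the list median was -0.15. With the block Ppp3ca, a catalytic subunit of calcineurin, also fell (-0.45). The kinases Syk and Btk had log2 changes of -0.57 and -0.35 (adjusted p = 0.15 and 0.37).

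Quiescence genes lay low as a list. Of 19 measured, 18 had a value below 0, where 53.9% of all genes lay above 0, and 3 fell while none (0) rose. Ccng2, a cyclin of non-cycling cells, read 0.29, 0.30 and 0.19 and then -0.52, -0.44 and -0.40 (-0.71 log2 units, SE 0.09, limma adjusted p = 0.01). Tested singly, its 2 probe sets had changes of -1.13 and -0.29 (limma adjusted p = 0.033 and 0.45). Btg2, an antiproliferative partner of the CCR4-NOT deadenylase, read 0.15, 0.13 and 0.10 and then -0.96, -0.48 and -0.53 (-0.78 log2 units, SE 0.13, limma adjusted p = 0.04). Sesn1, a stress-inducible inhibitor of mTORC1 signalling, read 0.05, 0.09 and 0.06 and then -0.39, -0.60 and -0.52 (-0.57 log2 units, SE 0.09, limma adjusted p = 0.038). The groups were apart at their nearest arrays in these 3 genes, by 0.59, 0.58 and 0.44. Ccng2 was called in 5 of the 6 fits with an array left out, and Btg2 and Sesn1 in 0. Klf2, a factor that keeps lymphocytes resting, had a value of -0.68 and Txnip, an inhibitor of glucose uptake, -0.53 (adjusted p = 0.57 and 0.27), and their arrays overlapped. The list median was -0.24. Foxo1 and Foxo3 had values of -0.13 and -0.11.

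The other genes that fell, named to account for all 45, were of mixed kinds. B3gnt5, a glycosyltransferase of lacto-series glycolipids, fell by 1.36, Slc25a37, the mitochondrial iron importer mitoferrin, by 1.03, and Rrm2b, a ribonucleotide reductase subunit induced by p53, by 0.89. Abca1, the cholesterol exporter, fell by 0.80 and Arrdc3, an arrestin-domain protein, by 0.82. One of the 3 Abca1 probe sets did not follow. Sertad4 fell by 1.64, Tmem26 by 1.35, Bend5 by 1.23, Ms4a4d by 1.19, Noxred1 by 1.16 and Klhl42 by 1.05. Zfp113, the aminopeptidase Xpnpep3, the GTPase Rab39, Gpr155, C2cd2l and the kinase anchor Akap12 fell by 0.92, 0.89, 0.85, 0.73, 0.70 and 0.70. The chromatin factor Cecr2, the ubiquitin ligase Rchy1, Nemp2, Pcmtd2 and the cofilin phosphatase Ssh2 fell by 0.69, 0.64, 0.57, 0.51 and 0.50. The predicted genes and clones 4930426D05Rik, Gm34006, Gm30054, Gm20559 and 2010315B03Rik fell by 1.38, 1.36, 1.00, 0.77 and 0.75. Only Bend5 and Abca1 among the 75 called genes lie on chromosome 4, the chromosome that carries the NOR segment.

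The 337 genes of the 18 pathway lists held 22 of the 75 called genes, and 53 called genes are in no list. Immediate-early transcription factors were highest as a list, with a median of 0.40 and 23 of 28 members above 0. With the replicate block 11 rose, against the 3 given above. The 8 added by the block include Nr4a1, the orphan receptor used as a reporter of antigen receptor signalling, and Myc, the growth regulator. Nr4a1 read -0.98, -1.15 and -0.14 and then 0.86, 0.32 and 0.81 (1.42, SE 0.26, limma adjusted p = 0.06, and 0.0064 with the block). Myc read -0.51, -0.86 and -0.13 and then 1.09, 0.30 and 1.01 (1.30, SE 0.25, adjusted p = 0.063, and 0.031 with the block). In both genes unstimulated replicate 3 was the highest unstimulated array and anti-IgM replicate 2 the lowest stimulated one, with no overlap. Fosb had a value of 1.12 (adjusted p = 0.12, 0.039 with the block). Egr1 and Fos had values of 0.38 and 0.40 and were called in neither fit (adjusted p = 0.11 and 0.23, and 0.058 and 0.075 with the block).

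**Figure D3:**
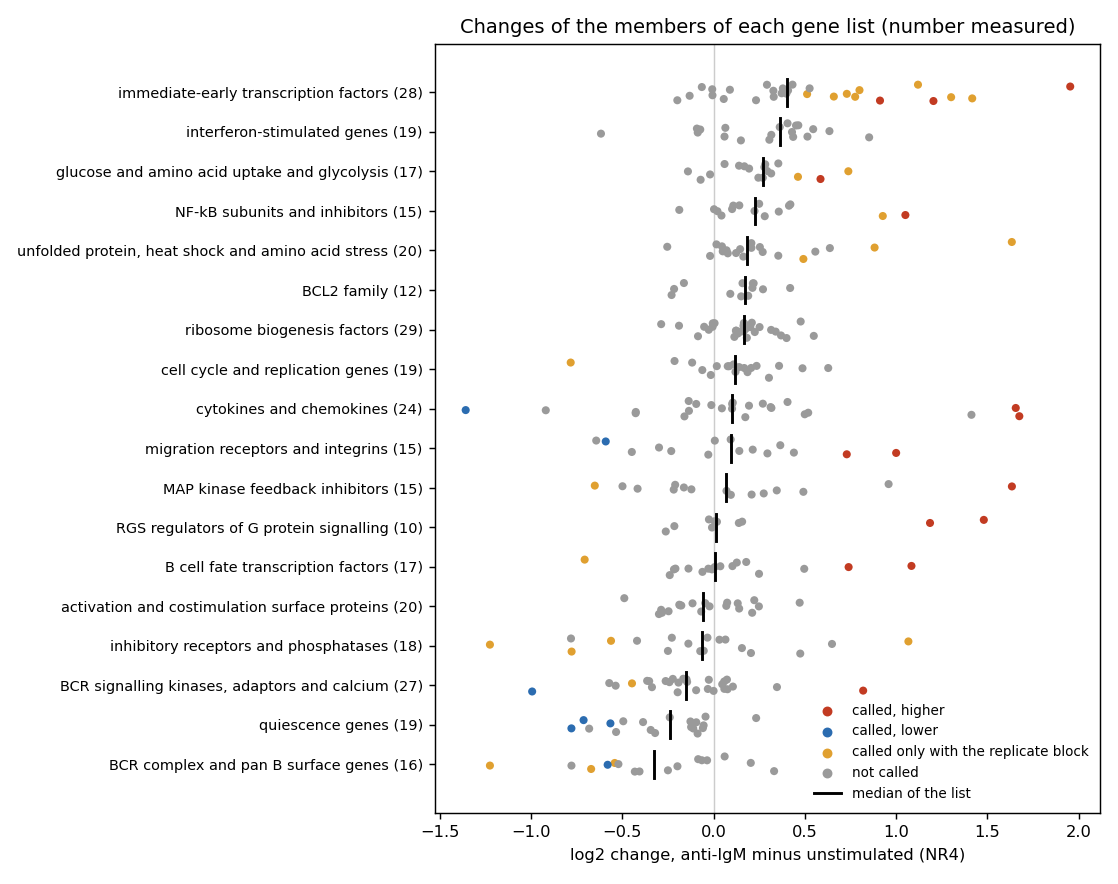
Change of each measured member (points; x axis, log2, anti-IgM minus unstimulated, NR4) of the 18 pathway lists (y axis, number measured in brackets, ordered by median). Red and blue points were called higher and lower, orange points only with the replicate block, and black bars are list medians, which run from -0.33 for the receptor complex and pan B genes to 0.40 for the immediate-early factors.

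Genes of the receptor complex and the pan B surface were lowest as a list. Of 16 measured, Cd37 fell and 15 did not pass, the median was -0.33, and with the block Cd22, Cd79b and Ms4a1 also fell. Cd22, an inhibitory lectin of the B cell receptor, read 0.41, 0.00 and 1.03 and then -1.11, -0.75 and -0.38 (-1.23, SE 0.24, adjusted p = 0.073, and 0.014 with the block). Cd79b, a signalling chain of the receptor, had a value of -0.67 and Ms4a1, which encodes CD20, -0.54 (adjusted p = 0.07 and 0.073, and 0.032 and 0.033 with the block). Ighm, the heavy chain bound by the antibody, had a value of 0.06. In RNA from whole cultures, fewer cells of a type and less RNA per cell cannot be told apart. The mean centred signal of the 9 B cell markers measured ranged from -0.16 to 0.31 on the unstimulated arrays and from -0.47 to -0.21 on the anti-IgM arrays.

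Markers of other cell types gave few calls. None (0) of the 11 T cell, 10 NK and cytotoxic, 13 monocyte and macrophage, 9 neutrophil, 9 dendritic cell, 5 erythroid, 7 platelet or 10 endothelial and stromal markers measured was called with limma. In the same order, 0, 1, 2, 0, 3, 0, 0 and 2 of them had an unadjusted p under 0.05, beside 9.63% of all genes. The dendritic cell marker Itgax, which activated B cells can also express, had a value of 0.58 and rose in the fit with the block (adjusted p = 0.065, and 0.037 with the block). Pecam1, an adhesion molecule of endothelium and leukocytes, had a value of -0.98 (adjusted p = 0.12). The mean centred signal of the T cell markers ranged from -0.31 to 0.12 on unstimulated and from -0.05 to 0.12 on anti-IgM arrays, and that of the monocyte and macrophage markers from -0.13 to 0.02 and from -0.11 to 0.08. For the NK and cytotoxic markers it ranged from -0.71 to 0.14 and from -0.29 to 0.16, and for the neutrophil markers from -0.22 to 0.20 and from -0.04 to 0.25. Unstimulated replicate 3 was the lowest array for the T cell and NK lists and the highest unstimulated array for the neutrophil list. Among markers of B cell subsets, S1pr3 was the 1 call of 9 marginal zone markers measured. Irf4 was the 1 call of 8 plasma cell markers, beside 0.412% of all genes called. Of the 9 marginal zone markers, 5 lay above and 4 below 0, with 2 higher and 2 lower at an unadjusted limma p under 0.05. Among the 8 plasma cell markers only Irf4 had such a p, and their median was 0.10. None (0) of 6 B-1 markers measured was called without the block. Cd5, a marker of B-1 cells that is also an inhibitory receptor induced by receptor signals, had a value of 1.07 (SE 0.23, adjusted p = 0.1, and 0.0056 with the block).

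The other lists had few calls or none (0), but not all stayed close to the median of all genes (0.02). The NF-kB list had a median of 0.22, with 14 of 15 members above 0. The glucose, amino acid and glycolysis list had a median of 0.27, with 14 of 17 above 0, where 53.9% of all genes lay above 0. At an unadjusted limma p under 0.05 the NF-kB list held 5 genes and the glucose list 6, all higher, beside 9.63% of all genes. Of 15 NF-kB subunits and inhibitors, Rel rose and 14 did not pass, among them the inhibitors Nfkbia and Tnfaip3 with changes of 0.02 and 0.41. Nfkbid, an atypical IkB protein, had a value of 0.93 (adjusted p = 0.12, and 0.029 with the block). Of 17 fate factors Irf4 and Ahr rose, while Prdm1, Pax5 and Bcl6 had values of 0.18, 0.04 and -0.14. Id3, an inhibitor of E proteins, fell with the block (-0.71). Of 17 genes of glucose and amino acid uptake and glycolysis Odc1 rose, and with the block the glucose transporter Slc2a1 and the amino acid transporter chain Slc3a2 rose too (0.46 and 0.74). None (0) of the 18 inhibitory receptors and phosphatases was called without the block, and 7 had an unadjusted limma p under 0.05 (9.63% over all genes). With it Cd5 rose, and Cd22, Siglecg and Fcrl1 fell. The 12 BCL2 family genes, 29 ribosome biogenesis factors, 19 interferon-stimulated genes and 20 activation and costimulation surface proteins held no (0) call in either limma fit. At an unadjusted p under 0.05 they held 3, 3, 4 and 6 genes, beside 9.63% of all genes. Their medians were 0.17, 0.16, 0.36 and -0.06. The mean centred signal of the interferon-stimulated genes was 0.87 on anti-IgM replicate 1, against -0.04 and 0.14 on the other anti-IgM arrays and 0.10, 0.03 and 0.04 on the unstimulated ones, so that list stood apart on 1 array.

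Surface markers used to follow B cell activation were not called at 2 h. Cd69 read -0.17, -0.17 and -0.14, then 0.04, 0.07 and 0.03, a difference of 0.21 (SE 0.09, adjusted p = 0.50). Cd83 had a value of 0.25 (SE 0.09, adjusted p = 0.37) and Cd86 of 0.22 (SE 0.17, adjusted p = 0.74). The arrays of Cd69 and Cd83 did not overlap, but 12.6% of all genes were apart in this way. Cell cycle and replication genes (19 measured) held no (0) limma call and 3 genes with an unadjusted p under 0.05 (9.63% over all genes), and E2f2 fell in the fit with the block only (-0.78, adjusted p = 0.16, and 0.049 with the block). The 20 stress genes had a median of 0.18, and 18 of them lay above 0. Of the 20 none (0) was called by limma, and 9 had an unadjusted p under 0.05 (9.63% over all genes), 8 of them higher. With the block Hmox1, Ppp1r15a and Hspd1 rose. Hmox1, the haem-degrading enzyme, read -0.04, -1.81 and -1.39 and then 1.05, 0.00 and 0.61 (1.63, SE 0.62, adjusted p = 0.41, and 0.026 with the block). Its arrays touched within 0.04, and each same-numbered pair rose, by 1.09, 1.81 and 2.00.

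The 154 genes called with the block alone comprised 52 rises and 102 falls. The arrays of 150 of them did not overlap, beside 12.6% of all genes, but the same arrays chose these genes. The largest of these rises after Hmox1, Nr4a1 and Myc were those of Rem2, a small GTPase (1.27), Fosb, Cd5, Celsr1 (1.03), Irs2, an insulin receptor substrate (1.03), Spsb4 (0.94) and Nfkbid. The largest falls were those of Vpreb3, a partner of the receptor during its assembly (-1.65), Wfdc21 (-1.64), Pxdc1 (-1.37), Cd22, 2700081O15Rik, Cnn3, a calponin (-1.19), Slc25a16 (-1.18), Nuak1, a kinase related to AMPK (-1.13), Zc4h2 (-1.09) and Gm3227. Vpreb3 read 0.42, 0.11 and 1.27 and then -1.43, -0.88 and -0.83. In Vpreb3, Wfdc21 and Pxdc1, unstimulated replicate 3 was the highest array.

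Tested singly, 75 of 45037 probe sets (0.167%) were called, 31 higher (0.0688%) and 44 lower (0.0977%). With the block 222 were called (0.493%), 82 higher (0.182%) and 140 lower (0.311%). The 75 probe sets carry 64 gene names, of which 47 are among the 75 called genes, and 4 of the probe sets have no listed symbol. The unnamed ones are 2 that rose, by 1.77 and 0.98, and 2 that fell, by 1.12 and 0.71. Of the called genes 38 rest on 1 probe set. In 27 of the other 37 every probe set followed the gene (unadjusted p under 0.05), in 10 at least 1 did not, and none (0) had a probe set with the opposite sign. The 10 are Abca1, Edaradd, Jdp2, Lipg, Nampt, Nfatc1, Nxpe2, Ralgps2, S1pr3 and Slc5a3.

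The same genes were then read in NOD B cells, whose arrays are separate but enter the shared estimate of error. Of the 75 genes, 73 (97.3%) had a change of the same direction in NOD, 30 of 30 rises and 43 of 45 falls. NR4 sizes are from the contrast that chose the genes, so they are selected for being large. Of the 30 rises, 15 were smaller in NOD, the median ratio of the NOD to the NR4 change was 0.994, and 16 were called in NOD. Of the 45 falls, 43 were smaller in NOD, the median ratio was 0.723, and 2 were called. NOD had 21 calls (0.115%), 18 higher (0.0989%) and 3 lower (0.0165%). With the block it had 52 (36 higher, 16 lower) and with array weights 94 (68 and 26). With 2 anti-IgM arrays its errors were larger (median SE 0.158 against 0.142). The genes shared by both sets of calls are 18, which is 24% of the NR4 and 85.7% of the NOD calls.

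The test of the difference between the strains called 0 genes (0%) with limma, in either direction, with 255 at an unadjusted p under 0.05, and again 0 with the block, with 977. Egr2 rose by 1.21 in NOD, Dusp4 by 1.58, Ccl4 by 1.81 and Il10 by 1.46, beside 1.20, 1.63, 1.65 and 1.67 in NR4. Gpr176, not called in NOD, had changes of 1.75 in NOD and 2.54 in NR4, and Lrrk2, likewise, of -1.28 and -2.15. The 4 called genes with the smallest interaction p fell in NR4 and had NOD changes near 0. Xpnpep3 had changes of -0.89 in NR4 and 0.002 in NOD, Bend5 of -1.23 and 0.11, Rab39 of -0.85 and -0.11, and Zfp113 of -0.92 and -0.03. The smallest unadjusted interaction p of the 75 genes was 0.00104, that of Xpnpep3 (limma). After adjustment over all genes none passed, so a difference between the strains was not detectable in these genes with these arrays.

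**Figure D4:**
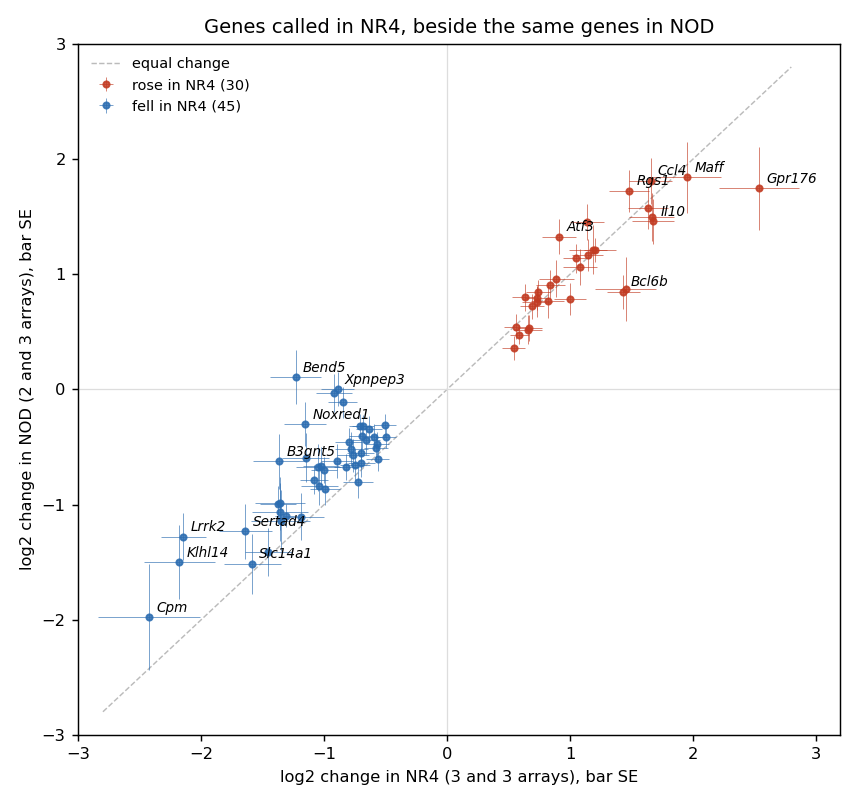
Log2 change after anti-IgM in NR4 (x axis, 3 and 3 arrays) and in NOD (y axis, 2 and 3 arrays) for the 75 genes called in NR4, with bars of 1 SE. Points on the dashed line have equal changes. Of the 30 rises 15 are smaller in NOD, with Gpr176, Lipg and Bcl6b the farthest below the line, and 43 of the 45 falls lie nearer 0 in NOD than in NR4. The genes were chosen by their NR4 change.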

How the data were processed

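The deposited table holds RMA values (background correction, quantile normalization and median polish of each probe set) per the submitters' processing notes, which give no version. The authors' values were taken as log2, a base the sources do not state, and every 1 of 45101 probe sets has a median of 0 over the 11 arrays, a centring no label mentions. Levels are lost, so a filter on dim probe sets could not be run. Genes are the median of probe sets with exactly 1 symbol in the platform annotation (34945 probe sets, 18193 genes); 932 had several symbols, 9160 none and 64 were controls. RefSeq GRCm38.p6 supplied names and promoters, since the files name no build.

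Limma 3.58.1 in R 4.3.3 was fitted to all 11 arrays with 4 group means (7 residual degrees of freedom), moderated, and adjusted by the Benjamini-Hochberg method over all genes or probe sets, two-sided. The fit was tested on simulated data. A change is anti-IgM minus unstimulated. Identical arrays were not found (0 pairs). Precision is limited by the number of arrays.

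Per the labels, the arrays of a group are biological replicates, and the series' design gives 3 lots of pooled spleens per strain without tying a replicate number to a lot. Same-numbered NR4 arrays deviated together from their group means (r = 0.329, 0.219 and 0.473 across genes), so replicate number was added as a block (5 residual degrees of freedom). The block gives NR4 and NOD arrays of the same number a shared shift, so it does not pair arrays within a strain. NOD arrays were not checked in this way. Only the blocked fit on the NR4 arrays alone, which called 16 genes, pairs them within the strain. Unstimulated replicate 1 and anti-IgM replicate 2 also correlated (0.184), so the pairing of replicate 2 is uncertain.

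Alternatives were the block, the NR4 arrays alone, quantile normalization, centring of arrays, the mean of probe sets, leaving out _x_at and _s_at probe sets, array weights and leaving out each NR4 array. The members and the 18 pathway and 12 marker lists were chosen with earlier results of these data known. Named genes are the 15 largest rises and falls, up to 5 called genes per list or the 2 with the smallest p, 10 genes fixed by name, up to 10 each way called with the block alone, and the 6 smallest interaction p-values. Other called genes, unnamed probe sets and list members were picked after their values were seen.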

Additional observations from a re-analysis of the deposited data

How the results depend on the processing

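With the replicate number as a block (the pairing check is given with the methods) the count of called genes rose from 75 to 229 (82 higher, 147 lower), called probe sets rose to 222 and called list genes from 22 to 46. The NR4 arrays alone gave 9 genes (5 higher, 4 lower), and 16 with the block (7 and 9). Quantile normalization gave 16 genes, of which 10 were higher and 6 lower, 8 probe sets and 8 list genes, so the split of higher to lower calls turned from 30 and 45. Array weights gave 55 genes, 29 of them lower. Leaving out 1 NR4 array gave 21 to 50 genes, 14 to 27 higher and 7 to 30 lower, and 6 to 39 probe sets. The block without anti-IgM replicate 1, chosen after seeing the data, gave 115 genes (46 higher, 69 lower). Counts stayed within 1.5 times of 75 with arrays centred on their medians (75), the mean of probe sets (74) and without _x_at and _s_at probe sets (72). The count of the test between strains was 0 in every alternative run for it. Of the genes named by the rule, the platelet markers Gp1bb (0.28) and Treml1 (0.14), neither called, changed sign without anti-IgM replicate 2. With single arrays left out they ranged from -0.0108 to 0.466 and from -0.0101 to 0.228. The cause of these changes was not tested.

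The direction of the 75 calls did not turn under any alternative. Arrays that do not overlap fix this in advance for fits that leave out or weight arrays without the block. How many genes pass depends on the spread, the scaling and each array. Probe sets near background could not be left out, because centring removed the levels.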
